A study of Mus musculus with 29 samples.

Results

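The genes that encode the subunits of glutamate and GABA receptors were followed as a set in the late embryonic mouse pallium, with and without BAF complexes. The set held 47 genes, chosen by symbol alone: 4 AMPA, 5 kainate, 2 delta and 7 NMDA receptor genes, 8 metabotropic glutamate receptor genes, 19 GABA-A receptor genes and 2 GABA-B receptor genes. All 47 were listed in both deposited count tables, which held 38355 genes for untreated embryos and 48709 genes for treated embryos. The study deleted BAF155 and BAF170 (genes Smarcc1 and Smarcc2), the scaffold subunits on which the chromatin-remodeling BAF complex depends. It asked how their loss changed transcription and the repressive histone mark H3K27me3 in late cortical development, and whether blocking Wnt signaling changed the outcome. RNA was sequenced from 19 libraries of whole embryonic cortex, and H3K27me3 was profiled by chromatin immunoprecipitation in 8 libraries, all at E17.5 of development.

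The untreated RNA experiment compared 4 control libraries with 3 libraries labelled dcKO, the double conditional knockout (Baf155 fl/fl; Baf170 fl/fl; hGFAP-Cre). Per the methods of the study its controls were littermates that carried hGFAP-Cre and 1 floxed copy of each gene, so that both arms held Cre. The genotype field of the untreated RNA and H3K27me3 libraries reads dcKO for controls too, and the control or mutant letter in each title was used here. The treated RNA experiment held 3 groups of 4 libraries, in which the mother was injected with vehicle or with ICG-001, an inhibitor of Wnt/beta-catenin transcription: WT embryos given vehicle, dcKO embryos given vehicle, and dcKO embryos given the inhibitor. All mice were on a C57BL/6J background. The H3K27me3 experiment compared 4 control with 4 dcKO libraries. The hGFAP promoter drives Cre in late radial glial progenitors, first in the medial pallium, so neurons born before Cre became active keep BAF complexes. Because tissue was sequenced in bulk, fewer cells of a type and less RNA per cell cannot be told apart.

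AMPA, kainate and NMDA receptors are ligand-gated cation channels of 4 subunits opened by glutamate. AMPA receptors carry most fast excitatory transmission, and NMDA receptors add calcium entry that depends on voltage. Metabotropic glutamate receptors act through G proteins. GABA-A receptors are chloride channels of 5 subunits, mostly alpha, beta and gamma, and GABA-B receptors are obligate pairs of Gabbr1 and Gabbr2 that signal through G proteins. In the embryonic cortex both transmitters act on progenitors and migrating neurons before most synapses form. Polycomb group complexes place H3K27me3, typically at promoters rich in CG dinucleotides of genes that a cell lineage keeps silent or has not yet switched on.

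The promoters of 7 members are shown because their RNA or H3K27me3 values are described below. Each run covers 250 bases before to 50 after a transcript start in RefSeq (GRCm38.p6, the genome of the mm10 build), with every CG dinucleotide in capitals. The first 5 lay in an H3K27me3 region, defined as merged peaks found in at least 2 of the 8 libraries.
Gabbr2, chr4:46991665-46991964, minus strand: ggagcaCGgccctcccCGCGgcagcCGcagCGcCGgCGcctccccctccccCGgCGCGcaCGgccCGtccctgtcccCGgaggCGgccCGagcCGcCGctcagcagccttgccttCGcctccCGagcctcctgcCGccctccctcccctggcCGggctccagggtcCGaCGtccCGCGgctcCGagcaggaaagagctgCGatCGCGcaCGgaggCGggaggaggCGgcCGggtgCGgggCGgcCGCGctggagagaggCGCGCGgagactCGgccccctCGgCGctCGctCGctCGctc
Grik3, chr4:125490446-125490745, plus strand: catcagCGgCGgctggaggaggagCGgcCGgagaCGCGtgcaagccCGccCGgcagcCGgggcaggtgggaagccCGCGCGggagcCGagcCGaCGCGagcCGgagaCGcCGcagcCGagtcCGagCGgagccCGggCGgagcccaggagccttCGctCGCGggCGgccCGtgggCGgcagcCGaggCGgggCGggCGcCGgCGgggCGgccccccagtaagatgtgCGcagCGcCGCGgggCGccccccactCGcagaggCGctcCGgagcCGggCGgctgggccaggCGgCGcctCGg
Grm2, chr9:106656060-106656359, minus strand: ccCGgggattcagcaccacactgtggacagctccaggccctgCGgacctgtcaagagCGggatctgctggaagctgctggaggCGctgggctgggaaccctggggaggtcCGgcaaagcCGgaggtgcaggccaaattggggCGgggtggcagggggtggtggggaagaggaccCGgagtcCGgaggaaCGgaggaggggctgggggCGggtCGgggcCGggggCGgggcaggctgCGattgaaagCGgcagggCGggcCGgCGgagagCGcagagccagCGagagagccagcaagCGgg
Grm3, chr5:9725303-9725602, minus strand: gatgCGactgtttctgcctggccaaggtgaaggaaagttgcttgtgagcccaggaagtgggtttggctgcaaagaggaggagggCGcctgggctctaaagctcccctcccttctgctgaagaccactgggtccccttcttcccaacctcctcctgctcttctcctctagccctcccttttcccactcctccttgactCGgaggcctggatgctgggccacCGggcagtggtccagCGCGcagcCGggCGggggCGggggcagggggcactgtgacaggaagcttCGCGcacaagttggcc
Gabrq, chrX:72824928-72825227, plus strand: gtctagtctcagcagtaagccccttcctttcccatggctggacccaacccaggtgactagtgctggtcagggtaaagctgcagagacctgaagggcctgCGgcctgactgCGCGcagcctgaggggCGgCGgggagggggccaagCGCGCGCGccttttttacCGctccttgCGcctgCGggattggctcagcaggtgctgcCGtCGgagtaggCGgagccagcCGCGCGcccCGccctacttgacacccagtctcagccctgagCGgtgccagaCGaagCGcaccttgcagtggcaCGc
The other 2 lay in no such region and belong to the members with the highest RNA levels per length.
Gria2, chr3:80802786-80803085, minus strand: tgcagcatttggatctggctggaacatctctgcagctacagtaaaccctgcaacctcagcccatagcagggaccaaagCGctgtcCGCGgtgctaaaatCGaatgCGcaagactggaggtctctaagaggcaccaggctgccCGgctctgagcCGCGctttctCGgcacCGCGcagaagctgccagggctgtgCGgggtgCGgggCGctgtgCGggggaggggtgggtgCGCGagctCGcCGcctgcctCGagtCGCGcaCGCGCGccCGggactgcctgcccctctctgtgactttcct
Gabbr1, chr17:37045716-37046015, plus strand: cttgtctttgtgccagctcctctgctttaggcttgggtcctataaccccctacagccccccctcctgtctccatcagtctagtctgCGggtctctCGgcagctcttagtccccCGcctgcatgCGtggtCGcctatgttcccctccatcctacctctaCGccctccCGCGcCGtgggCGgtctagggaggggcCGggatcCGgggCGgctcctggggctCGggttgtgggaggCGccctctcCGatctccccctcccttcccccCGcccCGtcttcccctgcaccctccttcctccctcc
Grik3 held 50 CG dinucleotides and Gabbr2 46, against 22 in Grm2, 23 in Gabrq and 11 in Grm3. Gria2 held 26 and Gabbr1 18, so these windows also contained many CG dinucleotides without an H3K27me3 region. Windows without any CG dinucleotide are not among those printed. Both windows of Gabra3, for example, held 0 and lay in no region. The ratio of observed to expected CG dinucleotides was 0.362 in the Grm3 window, against a median of 0.384 over all RefSeq windows. Promoter windows were found for 32 of the 47 members; Gabrd, Gria1, Gria3, Grid1, Grik1, Grin2a, Grin2b, Grin3a, Grm4 and Grm5 were among those not matched.

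RNA libraries held 11946658 to 28391046 counts in the untreated table and 12514443 to 26600594 in the treated table. The targeted genes did not follow every label. Smarcc1 stood at 247 to 269 CPM (counts scaled to library size by TMM) in untreated controls and at 128 and 135 CPM in the libraries labelled dcKO replicates 3 and 4, but replicate 2, though labelled dcKO, stood at 245.5 CPM. In treated embryos Smarcc1 was 244.5 to 299 CPM in WT vehicle and 133 to 138 CPM in dcKO vehicle replicates 1, 3 and 4, but 242.5 CPM in the library labelled dcKO vehicle replicate 2. The libraries labelled dcKO Wnt inhibitor replicates 1 and 2 had 214 and 252 CPM, replicate 3 had 140 CPM and replicate 4 was intermediate at 173 CPM. Smarcc2 followed the same order, with 399.5 and 398 CPM in untreated dcKO replicates 3 and 4 against 670 CPM in replicate 2. In Wnt inhibitor replicates 1 to 4 Smarcc2 was at 644, 695, 416 and 586 CPM, against 664 to 834 CPM in WT vehicle. The H3K27me3 files hold no RNA, so their labels were not checked in this way. Each RNA comparison is therefore given as labelled and again without the 4 libraries labelled dcKO in which both genes were near the control or WT level. Near means closer to the mean of that group than to the lowest library labelled dcKO. Wnt inhibitor replicate 1 met this rule, though both genes lay below every WT vehicle library in it. Wnt inhibitor replicate 4 was kept, since only its Smarcc2 was nearer to the WT vehicle mean than to the lowest mutant library. Same-numbered libraries of the untreated and vehicle experiments also deviated together from their group means (across 11411 genes, r = 0.75 to 0.92 for the 3 mutant pairs, against -0.80 to 0.61 for the 9 other pairings, and r = 0.21 to 0.67 for the 4 control pairs against -0.49 to 0.27 for the 12 others), so the untreated and vehicle mutant comparisons are not independent of each other.

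Pan-neuronal markers were present in every library, with summed levels of 7329 to 10260 CPM over 8 genes, none of them at 0. Summed markers of cortical projection neurons (8 genes, none at 0) were 2394 to 3216 CPM in control and WT vehicle libraries and 1861 to 2217 CPM in the 5 mutant libraries without inhibitor whose Smarcc1 was lowered. Neurod6 alone was at 525 to 1044 CPM in the former and 261 to 378 CPM in the latter. The other genes summed to 1704 to 2172 and 1562 to 1887 CPM, which overlap. As labelled, 7 of the 8 were lower in both mutant comparisons without inhibitor, with medians of -0.024 and -0.059. Summed markers of the striatum (6 genes, none at 0), a region that adjoins the pallium, were 57.5 to 93.7 CPM in controls and WT vehicle, 50.2 and 60.2 CPM in the 2 mutant libraries without inhibitor whose Smarcc1 was near the control level, and 145 to 189 CPM in the 5 others. This sum was carried by Ppp1r1b, at 98.7 to 134 CPM in those 5 libraries and 21.9 to 50.3 CPM in controls and WT vehicle, while the other 5 genes summed to 44.0 to 56.5 and 33.4 to 53.2 CPM. As labelled, 3 of the 6 were higher and 3 lower in both mutant comparisons without inhibitor (medians -0.0096 and 0.12). Under the Wnt inhibitor the sum was 129.5 to 207 CPM, with 77.1 to 137 CPM from the 5 genes other than Ppp1r1b. Summed interneuron markers (9 genes, none at 0) were 619 to 804 CPM in controls and WT vehicle and 803 to 950 CPM in the 5 mutant libraries without inhibitor whose Smarcc1 was lowered, but 523 and 562 CPM in the 2 others. Choroid plexus markers (5 genes, none at 0) summed to 849, 160, 487 and 6.62 CPM in Wnt inhibitor replicates 1 to 4, to 132.5 and 130 CPM in control replicate 4 and WT vehicle replicate 4, and to at most 15.95 CPM elsewhere. The part of these tissues in the receptor gene values below was not tested.

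Levels between genes were compared as CPM per kb of exon. In untreated controls the highest levels were those of Gria2, the AMPA subunit that limits calcium entry, at 61.5 ± 5.78 CPM per kb (SD, n = 4) and Gabbr1, the ligand-binding GABA-B subunit, at 61.5 ± 2.39. These neighbours did not differ beyond their spread. Gria1 stood at 47.5 ± 4.17, the kainate subunit Grik5 at 37.3 ± 2.34 and Grik3 at 30.1 ± 1.1 CPM per kb, with gaps between these 3 larger than their SDs. In WT vehicle Gabbr1 was at 65.3 ± 2.34 and Gria2 at 63.6 ± 20.5 CPM per kb.

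Shares of the length-scaled level differed between members of a family. Gabbr1 accounted for 80.9% ± 1.18 (SD, n = 4) of the GABA-B total in controls, although the receptor needs both subunits. Gria2 made up 46.0% ± 2.77 of the AMPA total in controls and Gria1 35.5% ± 2.36. Among the alpha subunits Gabra3 (35.1% ± 1.33), Gabra5 (29.6% ± 1.13) and Gabra2 (22.9% ± 1.38) held most of the controls' total. Of the metabotropic genes the group I receptor Grm5 was highest at 37.4% ± 3.02, followed by the group II receptor Grm3 at 27.6% ± 2.68. The delta gene Grid1 was at 6.75 ± 1.05 CPM per kb in controls, and Gabrd, the subunit of extrasynaptic receptors, led the remaining GABA-A genes at 1.08 ± 0.14 CPM per kb.

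For 3 members the order depended on the table. Grin2b, Grin2a and Gabrb1 were over 3-fold higher in WT vehicle than in untreated controls, whereas the ratio of the other members compared ran from 0.776 to 1.41. Grin2b, the main partner of Grin1 in fetal NMDA receptors, stood at 3.35 ± 0.86 CPM per kb in controls and 19.2 ± 3.03 in WT vehicle. It therefore held 42.0% ± 6.90 of the summed Grin2 genes in the first table and 76.0% ± 7.60 in the second, while Grin2d held 50.4% ± 6.61 and 19.3% ± 6.36. The tables list different numbers of genes and their annotation is not given in the sources used here, so no test was made between tables, and levels from both are set side by side as a description only. Gabra4 and Gabrb1 overlap by 196 bp on opposite strands; the library kit does not mark strand, and reads in the overlap cannot be assigned with certainty.

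At the other end, 6 members were too low to test in either experiment. These were Gabra6, Grm6, Gabrp and the rho subunits Gabrr1, Gabrr2 and Gabrr3. Gabra6 is known from cerebellar granule cells, and Grm6 and the rho subunits from the retina. Gabrr2 had the highest of the 6 levels at 0.162 ± 0.051 CPM per kb in controls, and the others were at most 0.041 CPM per kb.

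**Figure D1:**
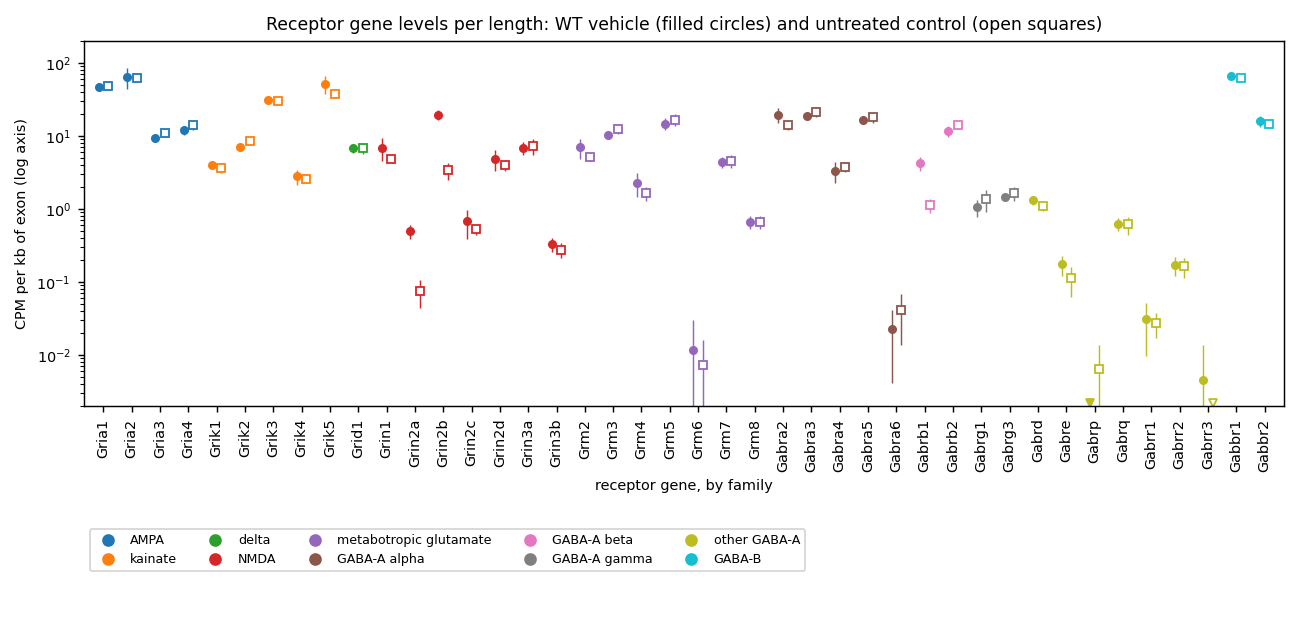
Level of 42 receptor genes in CPM per kb of exon on a log axis, as mean ± SD of the 4 WT vehicle libraries (filled circles) and the 4 untreated control libraries (open squares), with triangles at the lower edge for a mean of 0. Gria2 and Gabbr1 lie near the top in both tables, and Grin2a, Grin2b and Gabrb1 lie apart between the tables.

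The first comparison asked which receptor genes changed in the untreated mutant pallium. As labelled, 0 of the 41 members tested reached an adjusted p under 0.05 (edgeR quasi-likelihood test, Benjamini-Hochberg over 15770 genes); 1 of all genes did, or 0.00634%. By DESeq2 1 member was lower, Gabrb2 (adjusted p = 0.0371), and 0 higher, against 1.97% and 1.7% of all genes with an adjusted p. With unadjusted p under 0.05 there were 8 lower members and 0 higher ones, that is Gabrb2, Grm2, Gabbr2, Grin2a, Grik3, Grm3, Grm7 and Gabra5, against 8.14% of all genes lower and 7.91% higher. With unadjusted p under 0.01, the limit the study used for this experiment, there were 4 lower members and 0 higher, against 2.8% and 2.66% of all genes. The median log2 fold change of the 41 members was -0.12, against 0.004 over all genes, and 26 members (63.4%) had a negative value, against 49% of all genes. The groups did not overlap for 6 members, all lower, against 6.21% of all genes lower and 6.96% higher without overlap.

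Grin2a, an NMDA subunit whose expression rises after birth, had the most negative fold change. It measured 1.13, 1.06, 0.996 and 2.17 CPM in control replicates 1 to 4 and 0.588, 0.720 and 0.444 CPM in the libraries labelled dcKO replicates 2 to 4. The groups did not overlap, but control replicate 4, which also held choroid plexus RNA, stood above the other controls. The log2 fold change was -1.18 (SE 0.37, unadjusted p = 0.00957, adjusted p = 0.181). These levels rest on few reads, with 24 to 48 counts per control library.

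Gabrb2, a GABA-A beta subunit, had 86.9, 88.5, 77.5 and 100.1 CPM in controls and 71.5, 72.4 and 67.9 CPM in the libraries labelled dcKO. All 3 mutant libraries lay below all 4 controls, and the log2 fold change was -0.32 (SE 0.08, adjusted p = 0.147). Gabbr2, the GABA-B subunit that couples to G proteins, had 102.4, 96.9, 82.4 and 107.6 CPM in controls against 73.1, 85.2 and 76.1 CPM (log2 fold change -0.31, SE 0.10, adjusted p = 0.175). Here dcKO replicate 3 overlapped the lowest control. Grm2, a presynaptic group II receptor, had 29.03, 24.9, 22.0 and 25.03 CPM in controls against 18.1, 17.8 and 21.8 CPM (log2 fold change -0.39, SE 0.12, adjusted p = 0.169). The groups did not overlap, although control replicate 3 and dcKO replicate 4 were almost level.

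Families were not uniform. All 4 AMPA genes had negative values, with a median of -0.09, as did 5 of 7 NMDA genes (median -0.31). By contrast 4 of 5 kainate genes were positive, with a median of 0.09. Gabrq, the theta subunit, had the most positive value of the set, but its libraries were split. Controls 1 to 4 had 3.24, 3.59, 2.06 and 4.16 CPM, whereas the mutant-labelled libraries had 1.60 (replicate 2), 8.14 (replicate 3) and 6.42 CPM (replicate 4).

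Without the library labelled dcKO replicate 2, 7 of the 41 members passed an adjusted p under 0.05. Gabrq rose by 1.17 on the log2 scale (SE 0.23, adjusted p = 0.01) and the kainate subunit Grik2 by 0.35 (SE 0.09, adjusted p = 0.0258), against 5.57% of all genes called higher. Grm3 fell by 0.57 (SE 0.13, adjusted p = 0.0203), Grik3 by 0.26 (adjusted p = 0.0244), Gria3 by 0.32 (adjusted p = 0.0409), Gabrb2 by 0.33 (adjusted p = 0.0413) and Gria2 by 0.32 (adjusted p = 0.0485), against 6.88% of all genes called lower. For Grik2 the libraries labelled dcKO replicates 3 and 4 had 146 and 138.5 CPM, above the controls' 101.0 to 125.1 CPM, while replicate 2 had 108 CPM. Grm3 had 33.4 to 44.2 CPM in controls, 34.0 CPM in replicate 2, and 27.7 and 22.2 CPM in the other 2. Leaving out that library thus moved the count from 0 to 2 higher and 5 lower, and the 2 libraries kept were those with summed striatal markers of 153 and 145 CPM, of which Ppp1r1b made up 98.7 and 101 CPM. Grin3a, an NMDA subunit that lowers calcium entry, had the same split without passing the test, with 45.1 CPM in replicate 2, 132 CPM in replicate 3 and 115.0 CPM in replicate 4, around controls at 57.4 to 106.5 CPM. The summed interneuron markers of these libraries had the same order, at 523, 880 and 803 CPM, and their part in the Gabrq and Grin3a values was not tested.

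**Figure D2:**
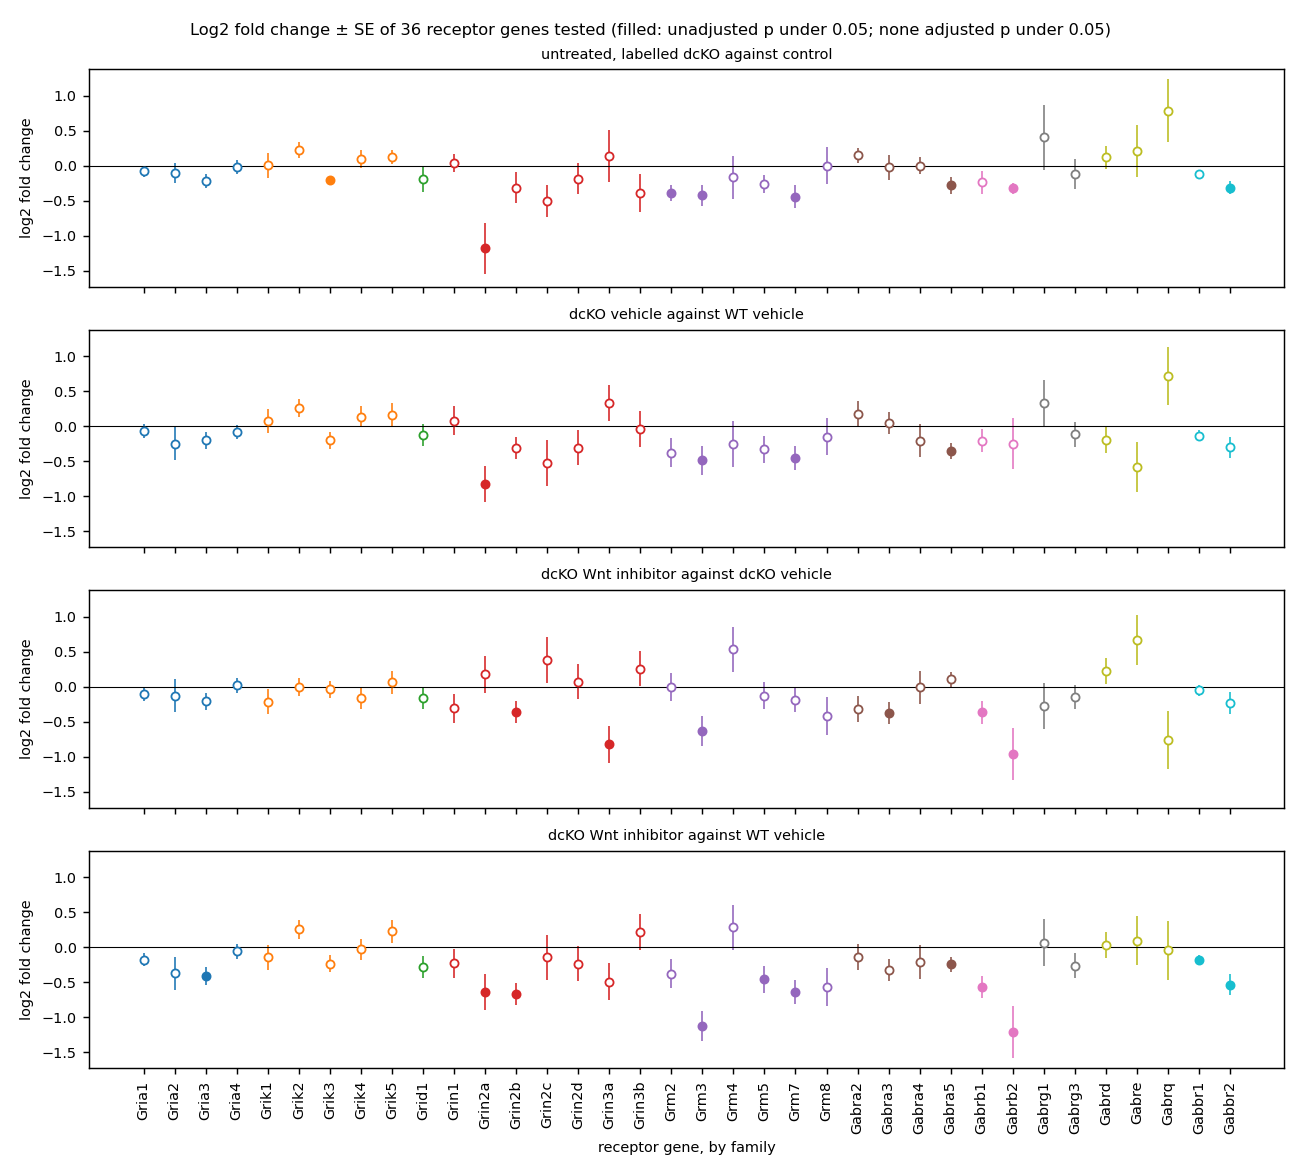
Log2 fold change ± SE of 36 receptor genes tested in each of the 4 RNA comparisons, with all libraries as labelled; filled points have an unadjusted p under 0.05. The filled points number 8, 4, 6 and 11 from top to bottom and all lie below 0.

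The vehicle comparison put dcKO vehicle against WT vehicle embryos in one fit with the Wnt inhibitor group. As labelled, 0 of 41 members passed an adjusted p under 0.05 by edgeR, against 0.00611% of 16372 genes, and DESeq2 called 0, against 0.214% of all genes lower and 0.519% higher. With unadjusted p under 0.05 there were 4 lower members and 0 higher, against 5.33% and 4.14% of all genes. These were Gabra5, Grin2a, Grm7 and Grm3. The median log2 fold change was -0.17, against -0.0031 over all genes, and 29 members (70.7%) were negative, against 50.7% of all genes.

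Grin2a had 6.85, 8.91, 8.11 and 11.7 CPM in WT vehicle replicates 1 to 4 and 4.42, 7.17, 4.53 and 4.01 CPM in dcKO vehicle replicates 1 to 4. Only the library labelled dcKO vehicle replicate 2 reached the range of WT vehicle. The log2 fold change was -0.82 (SE 0.26, adjusted p = 0.325) as labelled. Gabra5, an alpha subunit of extrasynaptic GABA-A receptors, had 47.0, 48.2, 42.5 and 54.8 CPM in WT vehicle against 37.4, 35.6, 39.9 and 38.0 CPM in dcKO vehicle, without overlap (log2 fold change -0.35, SE 0.11, adjusted p = 0.316). Grm3, a group II receptor also found on astroglia, did not overlap either, with 29.8, 30.8, 27.9 and 35.2 CPM against 22.1, 24.3, 22.1 and 19.6 CPM (log2 fold change -0.49, SE 0.21, adjusted p = 0.480). Family medians were negative for AMPA (-0.14), NMDA (-0.31), metabotropic (-0.33) and GABA-B genes (-0.22), and positive for kainate genes (0.13). Gabbr1 did not overlap either, at 483 to 524.5 CPM in WT vehicle and 456 to 470 CPM in dcKO vehicle, which made 3 of 41 members lower without overlap and 0 higher, against 2.57% and 3.08% of all genes.

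Without the libraries whose Smarcc1 and Smarcc2 were near the WT level, 1 member was called in each direction. Grin2a fell by 1.05 on the log2 scale (SE 0.18, adjusted p = 0.00797), where 3.34% of all genes were called lower. Gabrq rose by 1.03 (SE 0.19, adjusted p = 0.0103), where 2.47% of all genes were called higher. Gabrq had 3.02, 3.89, 2.56 and 3.95 CPM in WT vehicle and 7.04, 6.93 and 6.85 CPM in dcKO vehicle replicates 1, 3 and 4, but 1.51 CPM in the library labelled replicate 2. Grin3a was again split, at 132, 132 and 113 CPM in replicates 1, 3 and 4 and 45.8 CPM in replicate 2, around 61.3 to 101.2 CPM in WT vehicle. Summed interneuron markers were 898, 950 and 891 CPM in replicates 1, 3 and 4 and 562 CPM in replicate 2, against 619 to 804 CPM in WT vehicle.

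**Figure D3:**
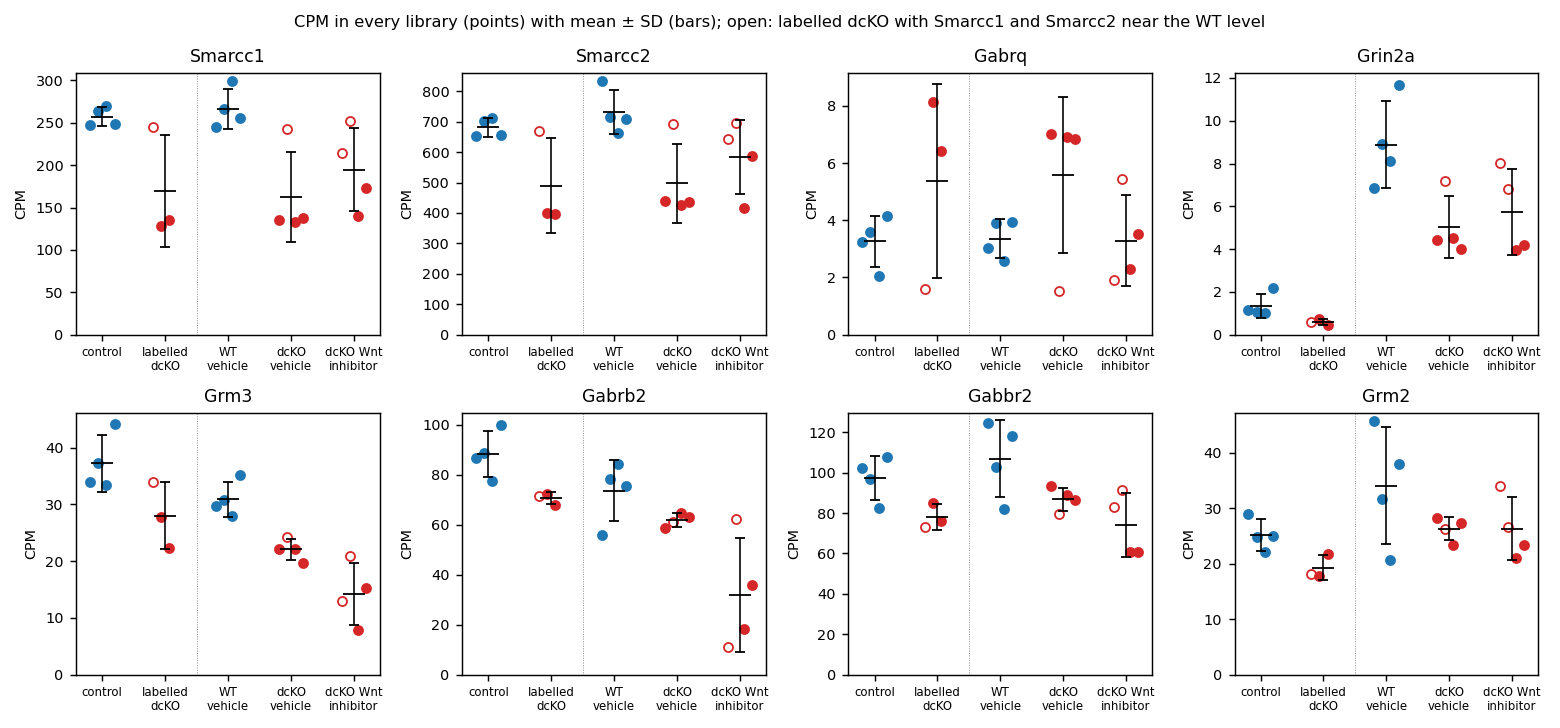
CPM of Smarcc1, Smarcc2 and 6 receptor genes in every RNA library, with mean ± SD per group; control and WT vehicle are blue, libraries labelled dcKO red, and those with Smarcc1 and Smarcc2 near the WT level open. The dotted line separates the untreated and treated tables; Gabrq is at 6.42 CPM or more only in 5 of the filled red libraries.

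The third comparison asked what the Wnt inhibitor changed in the mutant. As labelled, 0 of 41 members passed an adjusted p under 0.05 by edgeR, against 0.055% of all genes, and DESeq2 called 0, against 1.01% of all genes lower and 1.06% higher. Unadjusted p fell under 0.05 for 6 members, all lower, against 8.0% of all genes lower and 7.85% higher. The 6 were Grin3a, Grm3, Gabrb2, Gabra3, Grin2b and Gabrb1. The median log2 fold change was -0.15, against 0.0108 over all genes, and 31 members (75.6%) were negative, against 48.2% of all genes.

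Inhibitor libraries differed from each other for Gabrb2 and Grm3 by more than the vehicle libraries did. Gabrb2 had 10.9, 62.1, 18.2 and 35.8 CPM in Wnt inhibitor replicates 1 to 4, against 58.5, 61.3, 64.7 and 63.1 CPM in dcKO vehicle. Replicate 2 lay within the vehicle range and the other 3 lay below it (log2 fold change -0.96, SE 0.37, adjusted p = 0.254). Without Wnt inhibitor replicate 2 the log2 fold change of Gabrb2 was -1.51 (adjusted p = 0.0343) and that of Grm3 -0.88 (adjusted p = 0.0381), and both were then called, against 1.67% of all genes lower and 0.86% higher. Without the library labelled dcKO vehicle replicate 2, Grin3a (-1.07, adjusted p = 0.0156) and Gabra3 (-0.52, adjusted p = 0.0485) were called instead, against 0.454% of all genes lower and 0.635% higher. Grin3a had 52.3, 67.9, 63.3 and 55.5 CPM under the inhibitor, below dcKO vehicle replicates 1, 3 and 4 and above the 45.8 CPM of the library labelled replicate 2 (log2 fold change -0.82, SE 0.26, adjusted p = 0.199).

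Without the 3 treated libraries near the WT level in both targeted genes, 2 inhibitor libraries remained and 3 members fell, against 0.72% of all genes lower. Grin3a fell by 1.08 (SE 0.19, adjusted p = 0.037), Gabrq by 1.25 (SE 0.24, adjusted p = 0.0411) and the alpha subunit Gabra3 by 0.60 (SE 0.12, adjusted p = 0.0456). No member was called higher, against 0.303% of all genes. Gabrq had 1.91, 5.45, 2.28 and 3.51 CPM in Wnt inhibitor replicates 1 to 4, all below dcKO vehicle replicates 1, 3 and 4, and replicate 2 was above the WT vehicle range. Choroid plexus markers reached 487 CPM in replicate 3 and 6.62 CPM in replicate 4, the 2 inhibitor libraries kept. Summed interneuron markers were 842, 989, 910 and 1015 CPM in Wnt inhibitor replicates 1 to 4. In dcKO vehicle replicates 1, 3 and 4 they were 898, 950 and 891 CPM. Their part in the Gabrq and Grin3a values was not tested here either.

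Between dcKO Wnt inhibitor and WT vehicle, which share neither genotype nor treatment, the differences were the largest of the 4 comparisons by median. As labelled, 0 of 41 members passed an adjusted p under 0.05 by edgeR, against 0.0977% of all genes. With unadjusted p under 0.05 there were 12 lower and 0 higher, against 10.2% and 9.53% of all genes. DESeq2 called 7 lower, among them Gabbr2, Gabrb1, Gria3, Grin2b, Grm3 and Grm7, and 0 higher, against 2.8% and 2.09% of all genes. The median log2 fold change was -0.23, against 0.0061 over all genes, and 34 members (82.9%) were negative, against 49.2% of all genes. Both mutant treated comparisons with WT vehicle use the same 4 WT vehicle libraries, and both comparisons of the inhibitor use the same inhibitor libraries.

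Grm3 was closest to the threshold (log2 fold change -1.12, SE 0.22, adjusted p = 0.0569). Its 12.9, 20.9, 7.82 and 15.2 CPM under the inhibitor lay below all 4 WT vehicle libraries. Grin2b had 288, 406, 279 and 227 CPM against 375, 471, 511 and 551 CPM in WT vehicle (log2 fold change -0.67, SE 0.16, adjusted p = 0.0812), and inhibitor replicate 2 overlapped WT vehicle replicate 1. Gabrb2 had the most negative value at -1.21 (SE 0.37, adjusted p = 0.128). All members of the AMPA and GABA-B families were negative, with medians of -0.28 and -0.36, whereas Grik2, Grik5, Grm4 and Grin3b were among the 7 positive members. Grik5 had 359, 271, 301 and 326 CPM under the inhibitor and 353, 262, 176 and 281 CPM in WT vehicle, with overlap.

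Leaving out the libraries near the WT level in both targeted genes, 8 members fell, against 4.72% of all genes lower, and 0 rose, against 2.66%. Both ionotropic and metabotropic receptors were among them. For example, Gabrb2 fell by 1.45 (SE 0.25, adjusted p = 0.00996), Grm3 by 1.42 (SE 0.23, adjusted p = 0.00798), Grin2a by 1.13 (SE 0.21, adjusted p = 0.0137) and Grin2b by 0.92 (SE 0.15, adjusted p = 0.00909) on the log2 scale. Grm7, a presynaptic group III receptor, fell by 0.91, Gabbr2 by 0.82 and Gria3 by 0.53, with adjusted p from 0.013 to 0.0377. Only 2 inhibitor libraries enter this fit. With all libraries but Wnt inhibitor replicate 2, 10 members were lower and 0 higher, against 5.35% and 3.39% of all genes. Without WT vehicle replicate 1, 3 were lower and 0 higher, against 0.517% and 0.607%.

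Pan-neuronal markers moved in the same direction as most receptor genes. All 8 had negative values in the untreated comparison, the vehicle comparison and the inhibitor against WT comparison, with medians of -0.17, -0.21 and -0.24, and 0 passed an adjusted p under 0.05 by edgeR (4, 2 and 3 with unadjusted p under 0.05, all lower; DESeq2 called 3, 0 and 0). Their sums were 9461 to 10260 CPM in controls against 8560 to 9171 CPM in untreated mutants. Between inhibitor and vehicle mutants their median was 0.04, with 3 of 8 negative. In that comparison all 4 markers of Cajal-Retzius cells, the earliest cortical neurons, were negative (median -0.36, 3 with unadjusted p under 0.05), with sums of 370 to 587 CPM under the inhibitor and 471 to 691 CPM in vehicle, none of them at 0, whereas 7 of 9 interneuron markers were positive (median 0.30). The part of neuron content or of these neuron types in the receptor gene values was not tested.

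Other genes of the synapse are given by role, first for the untreated mutants. Of 15 AMPA and kainate auxiliary subunits, which set gating and transport of the channels, 6 were negative and 9 positive (median 0.02), with 3 lower and 2 higher by unadjusted p under 0.05. Of 23 postsynaptic scaffold genes 15 were negative (median -0.06), with 4 lower and 1 higher. Of 15 genes for transmitter synthesis and transport 9 were negative (median -0.01), with 4 lower and 0 higher, and of 4 GABA-B auxiliary subunits 3 were tested and 2 were lower. In the inhibitor against WT comparison 11 of 15 auxiliary, 19 of 23 scaffold and 9 of 15 synthesis genes were negative, with medians of -0.15, -0.19 and -0.05. By edgeR 0 of these genes passed an adjusted p under 0.05 in any of the 4 comparisons, whereas DESeq2 called 4 lower and 2 higher in the untreated comparison, 1 each way for vehicle, 2 lower for inhibitor against vehicle and 8 lower for inhibitor against WT, of 56 genes tested in the first and 57 in the others. With unadjusted p under 0.05 there were 13, 9, 8 and 12 lower and 3, 1, 1 and 4 higher among the 4 lists, in the same order. Over all genes the shares at that limit were 8.14, 5.33, 8.0 and 10.2% lower and 7.91, 4.14, 7.85 and 9.53% higher. For the DESeq2 calls they were 1.97, 0.214, 1.01 and 2.8% lower and 1.7, 0.519, 1.06 and 2.09% higher. Whether receptor genes differed from these lists was not tested.

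An H3K27me3 region, with a peak in at least 2 of the 8 libraries, lay near a start of most receptor genes. In 30 of the 47 members (63.8%) a region lay within 2000 bp of a transcript start, against 5620 of 21951 protein-coding genes (25.6%). All 7 NMDA genes had one and most metabotropic genes did, while 1 of 4 AMPA genes and 3 of 5 kainate genes did. Regions at the starts of Grin1 (3 regions, 25759 bp together), Grm4 (2 regions, 20160 bp) and Grin2c (1 region, 16076 bp) were among the longest. Grm5, the most highly expressed metabotropic gene per length, had none at a start. In all, 112 distinct regions lay at 37 members, at a start or in the body, and Gabbr1, Gria2 and Grik2 were among the 10 without any.

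A single region at a start held a peak in all 8 libraries at 7 members: Grid1, Grik1, Grik3, Grin1, Grin2a, Grm4 and Grm6. Gabbr2 had a peak at one or another of its starts in each library, but no region in more than 6. Gabrb2, Gabrq and Gria4 were among those at the limit of 2 libraries. The region at Grik3 (chr4:125480606-125499722) was 19117 bp long, and that at the upstream start of Gabbr2 (chr4:46988411-47000639) 12229 bp. Both contain the CG-rich promoters printed above. Grik3 was also among the members with the highest levels per length. Members with a region at a start had a median of 4.10 CPM per kb in WT vehicle (n = 30), and those without had 9.37 (n = 17). With stricter groups the difference was not seen, at 5.39 for members with a peak at a start in all 8 libraries (n = 8) and 5.15 for those with no region at the start or in the body (n = 10). Members with a region at a start were also longer, with a median gene length of 231552 bp against 90655 bp, but had fewer annotated starts, with medians of 3 and 5.

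Promoter windows inside a region were richer in CG. Of 39 windows at 32 members, 21 (53.8%) lay in a region, against 15.1% of 32851 windows in the whole promoter table. The median GC share was 61.0% in and 49.8% outside regions among members, and 61.7% and 51.3% over the whole table. The median ratio of observed to expected CG dinucleotides, counted within the 300-base window, was 0.629 in and 0.476 outside regions among members, and 0.623 and 0.333 over all windows. Members inside a region thus lay close to other genes inside a region.

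The last comparison asked whether the mark at receptor genes differed between mutants and controls. Fold enrichment over input, the height of the highest peak as the peak caller gave it, was tested in log2 with limma, with a value of 1 where a library had no peak. Of the 112 regions 0 reached an unadjusted p under 0.05; the smallest was 0.118 (adjusted p = 1), and over all 22220 regions 0.198% were higher and 0.0225% lower at that limit. The mean was higher in dcKO at 72 regions (64.3%), against 59.8% of all regions. The share of reads kept after removal of duplicates set 2 classes of libraries apart, 12.3 to 18.0% in control replicates 1 and 3 and dcKO replicates 1 and 2, and 32.8 to 66.5% in the other 4. Within the higher class 61.6% of the member regions were higher in dcKO (mean log2 fold enrichment 0.76 in control, 1.04 in dcKO), and within the lower class 43.8% were (1.15 and 1.14). Regions without a peak in any library of a class are ties and count as not higher. Neither share therefore tells how many regions were lower in dcKO. The share over all regions was not computed by class. In the higher class dcKO replicate 4 kept 32.8% of its reads and had 46000 peaks, against 6674 to 13326 in the other 3.

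At the start of Grin2a (chr16:9990858-9997092) the fold enrichment was 7.68, 4.60, 6.32 and 3.60 in control replicates 1 to 4 and 12.1, 7.52, 4.99 and 9.91 in dcKO replicates 1 to 4. The groups overlapped, and the log2 difference was 0.62 (SE 0.61, adjusted p = 1). At Gabrq the start (chrX:72824375-72825895) had a peak in dcKO replicate 1 at 3.75 and replicate 4 at 4.86 and in no control library. The log2 difference was 1.05 (SE 0.75, unadjusted p = 0.162), and the same 2 libraries were also those with the highest mean over member regions among the dcKO libraries, at 1.62 and 1.54. At the Grm3 start (chr5:9724056-9726238) 3 control libraries had 4.21, 4.18 and 3.67 and 2 dcKO libraries had 3.63 and 5.99. At Gabra5 (chr7:57506644-57511916), with the highest single value at a member start, control libraries 1, 2 and 4 had 12.8, 3.93 and 3.99 and dcKO libraries 1, 3 and 4 had 15.3, 4.29 and 8.22.

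**Figure D4:**
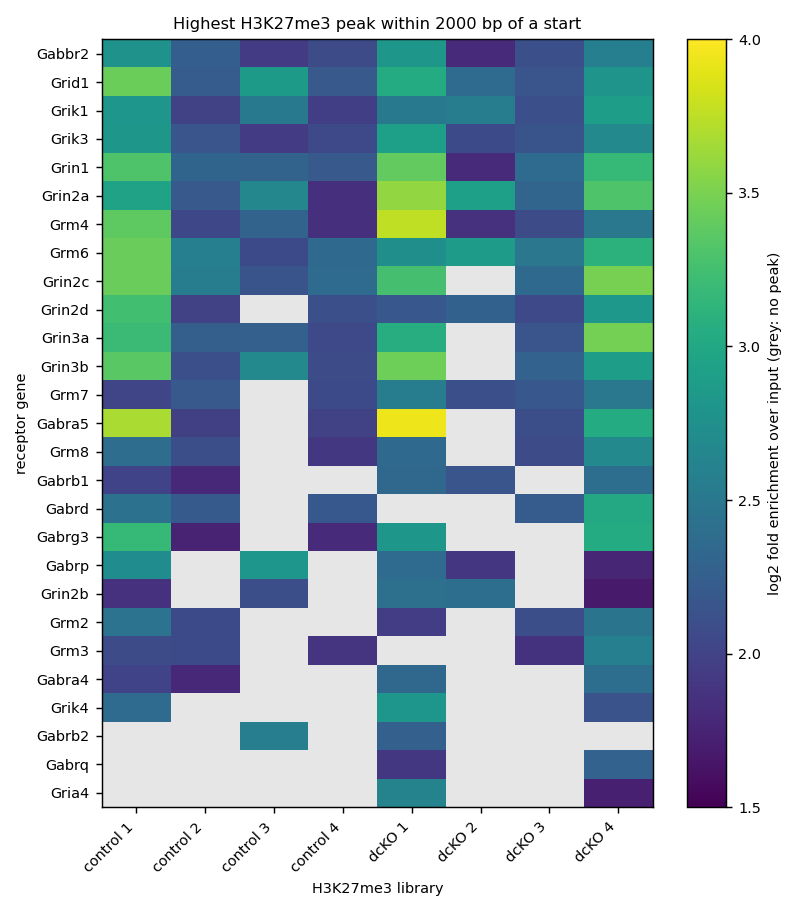
Log2 fold enrichment over input of the highest H3K27me3 peak within 2000 bp of a start, for 27 receptor genes with a region there (rows, ordered by the number of libraries with a peak) in 4 control and 4 dcKO libraries; grey marks no peak, and a gene with several starts has its highest. The 8 top rows are filled in every library, and control replicate 1 and dcKO replicates 1 and 4 hold most of the high values.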

How the data were processed

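RNA was reverse transcribed with a kit that does not mark strand, and the authors aligned reads with STAR to mm10 and deposited raw counts per gene made with featureCounts; annotation and strand setting are not given in the sources used here. For H3K27me3 the authors called broad peaks per library against a pooled input with MACS2 (q-value limit 0.1, 1 tag kept per position) and deposited each peak's pileup signal, fold enrichment ratio, and −log10 p-value and q-value. The untreated table had 5 rows that name no gene, which were left out.

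Counts were tested with edgeR 4.0.16 (TMM, filterByExpr, robust quasi-likelihood test, Benjamini-Hochberg over all genes; 7 untreated or 12 treated libraries per fit). CPM were scaled by TMM, and lengths, starts and gene positions came from GENCODE M21. Overlapping peaks (1 bp or more) of any library were joined into regions, and those holding a peak in 2 or more libraries were tested with limma 3.58.1. P-values measure the spread between libraries. Alternatives were DESeq2 1.42.0 (its size factors, its Wald test), no filter, a replicate block, each replicate left out, 2-group fits, and other peak limits, joins, values and centring. Fits without the libraries whose Smarcc1 and Smarcc2 were near the control or WT level were added after seeing the data. Members and gene lists were chosen with earlier results of these data known. Full statistics were planned for members called in any comparison or at an unadjusted p under 0.01 in the untreated one. The plan also named the top member of each family by level and members marked at a start. The text gives full statistics for only part of these members. That part, and the other members named with values, were chosen after the values were seen. The scripts were tested on simulated data. Reads of the 2 count tables were not pooled. Some members are not reported here by name; counts over the set include them.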

Additional observations from a re-analysis of the deposited data

Results flagged for a closer look

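In groups of 4 libraries, a library was singled out where its gap to the nearest other one, as a share of the range of the group, passed Dixon's 95% critical value. For independent groups chance gives about 1 in 20. The groups here share libraries and include Smarcc1 and Smarcc2, whose split was already known, so that rate does not apply. A library was singled out in 6 of 72 groups examined. The library labelled dcKO vehicle replicate 2 accounted for 4 of them: Smarcc1 at 242.5 CPM (133 to 138 CPM in the other 3), Smarcc2 at 691.8 CPM (425 to 439), Grin2a at 7.17 CPM (4.01 to 4.53) and Gabrq at 1.514 CPM (6.85 to 7.04). Smarcc2 and Grin2a lay within the WT vehicle range, and Smarcc1 and Gabrq below it.

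Grin2a was at 2.169 CPM in untreated control replicate 4, against 0.996 to 1.13 CPM in the other controls. Gabrd was at 2.977 CPM in WT vehicle replicate 3, against 3.99 to 4.14 CPM in the others.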

How the results depend on the processing

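The median of the receptor genes kept its sign in the 4 RNA comparisons under every alternative. Of 2173 fold changes of single members recomputed, 101 changed sign, 0 of them called and each at most 0.18 in size as reported. The untreated count at an unadjusted p under 0.01 was 4, 1 under the replicate block, and 1 to 9 with a library left out (9 without the library labelled dcKO replicate 2, 1 without control replicate 2 or dcKO replicate 4). With a library left out, calls in the untreated comparison ran from 0 to 2 higher and 0 to 5 lower (the upper values without the library labelled dcKO replicate 2), in the vehicle comparison from 0 to 1 lower, for inhibitor against vehicle from 0 to 2 lower and for inhibitor against WT from 0 to 10 lower. DESeq2 called 1 lower in the untreated comparison and 7 for inhibitor against WT, where no filter and the replicate block gave 1 each. Without the libraries near the WT level in both targeted genes, the calls were 1 higher and 1 lower for vehicle. In the same fit they were 3 lower for inhibitor against vehicle (median -0.26, against -0.15) and 8 lower for inhibitor against WT. Same-numbered libraries within an experiment had a mean r of -0.14 untreated, 0.093 treated and 0.080 for H3K27me3. Differently numbered libraries had 0.046, -0.028 and -0.021. In the treated experiment WT vehicle replicate 1 had r = 0.38 with dcKO vehicle replicate 1 and 0.40 with Wnt inhibitor replicate 1. The highest differently numbered pair there had 0.24. The main fits treated all libraries as unpaired, and the replicate block changed no other call. The share of member regions higher in dcKO was 64.3%, from 41.3 to 82.4% with a library left out and 50.9% when libraries were centred. It fell under 50% without control replicate 3 (41.3%) or 4 (45.4%), and the mean difference of 0.14 was -0.0096 within the lower class of reads kept. The 30 members marked at a start were 26 to 30 under 12 alternatives. The causes were not tested. Members under about 1 CPM, such as Grin3b, rest on few counts (7 to 32 per library for Grin3b) and small changes were not detectable at this depth. Peak lists hold no reads, so enrichment below the peak limit is unknown.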
